A study of Sus scrofa with 15 samples.

Results

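The genes studied here govern whether a lymphocyte leaves a tissue, and they were followed in porcine natural killer (NK) cells: the sphingosine-1-phosphate (S1P) receptor genes S1PR1, S1PR4 and S1PR5, the Krüppel-like factor genes KLF2 and KLF3, and CD69. They were picked by symbol and all 6 were found among the 29886 genes of the count table. NK cells were sorted from 5 pigs, 6 months old, as CD3-CD172a- lymphocytes, and each pig gave 3 populations: CD8αhigh NK cells from blood (cNK cells), CD8αhigh NK cells from the liver, which the labels call conventional liver NK cells, and CD8αdim liver-resident NK cells (lrNK cells). The liver was first perfused with PBS through the portal vein, and the liver cells came from a further, final flush. Cells washed out before it and cells held behind after it were thus not sampled. The labels name no genotype or treatment, and all 15 libraries were 3′ mRNA libraries of bulk RNA, in which a lower level per cell and a smaller share of cells carrying the transcript cannot be told apart.

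S1P is a lipid that is plentiful in blood and lymph and scarce inside tissues, and lymphocytes follow this gradient out of a tissue through G protein-coupled S1P receptors. S1PR1 is the main exit receptor of T and B cells, S1PR5 serves the exit of NK cells from bone marrow and lymph node, and S1PR4 is largely restricted to blood cell lineages. KLF2 switches on S1PR1 in T cells, KLF3 is a related factor of the same DNA-binding family and mostly a repressor, and the CD69 protein binds S1PR1 and takes it off the surface. In mice and humans, tissue-resident lymphocytes are commonly described as low in KLF2 and S1P receptors and high in CD69.

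In the pig liver, S1PR5, S1PR4, KLF2 and KLF3 were all lower in CD8αdim lrNK cells than in either CD8αhigh population, whereas S1PR1 was called in no comparison. CD8αhigh NK cells from the liver did not differ by the test from blood cNK cells in any of the 5 genes that could be tested. CD69 was close to 0 counts throughout and was not tested.

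The libraries held 2003499 to 5680221 counts, with the lowest median, 2407859, in lrNK cells. The sorted cells carried all 10 NK markers that were checked, and CD8A averaged 43.4 CPM (counts scaled to library size) in lrNK cells against 466 CPM in blood and 490.3 CPM in liver CD8αhigh NK cells, as the gate requires. Lists of markers of other cells also moved with the populations. The 7 B cell markers summed to 243 to 792 CPM in lrNK cells, 18.4 to 137 CPM in blood and 17.9 to 56.3 CPM in liver CD8αhigh NK cells, and all 6 that could be tested were higher in lrNK cells, although CD79A was at 0 everywhere. The 7 T cell markers, of which CD3G made up most of the counts, summed to 110 to 593 CPM in lrNK cells, 637 to 1203 CPM in blood and 714 to 1076 CPM in liver CD8αhigh NK cells. Of the 3 that could be tested, CD3G was lower in lrNK cells (289 against 865 CPM in blood, log2 fold change -1.58, edgeR adjusted p = 0.00216), and CD4, CD5 and CD28 were at 0. CD3D averaged 8.43 CPM in lrNK cells, 3.78 CPM in blood and 7.38 CPM in liver CD8αhigh NK cells and was not called. The 7 endothelial markers summed to 5.62 to 18.8 CPM in lrNK cells, 0 to 12.5 CPM in blood and 2.24 to 4.46 CPM in liver CD8αhigh NK cells. Of these, PECAM1 averaged 9.64 CPM in lrNK cells against 4.89 CPM in blood and 2.74 CPM in liver CD8αhigh NK cells and was not called, TEK was read mostly in lrNK cells and was too low to test, and CDH5, STAB2 and LYVE1 were at 0. The part of these cell types in the values of the egress genes was not tested. Markers of hepatocytes and of myeloid cells summed to at most 9.74 CPM in any library.

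**Figure D1:**
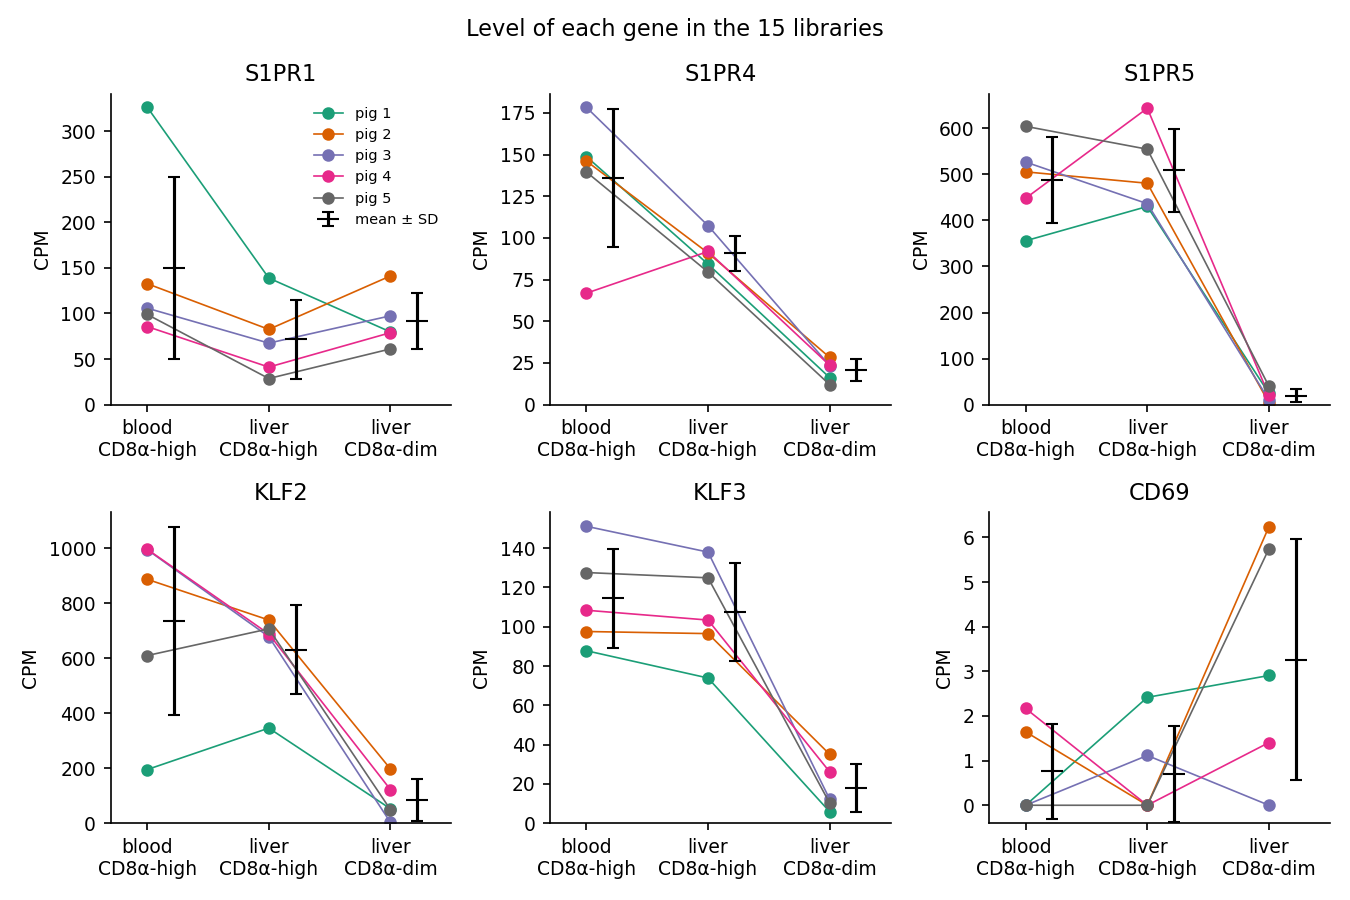
Level of the 6 genes in CPM (linear axes) in each of the 15 libraries, with the libraries of a pig joined by a line and the mean ± SD of the 5 libraries in black. S1PR4, S1PR5 and KLF3 were lower in every CD8αdim library than in any CD8αhigh library, S1PR1 overlapped throughout, and CD69 stayed below 7 CPM.

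Among the receptors, S1PR5 showed the largest difference. The gene lies at chr2:69293537-69299408 (Sscrofa11.1) and overlaps no other annotated gene. In cNK cells of pigs 1 to 5 it reached 356, 505, 527, 448 and 604 CPM. Liver CD8αhigh NK cells of the same pigs held 430.3, 481, 436, 644 and 555 CPM. In lrNK cells it came to 24.5, 3.84, 10.2, 19.9 and 40.0 CPM. Every lrNK library was thus below every CD8αhigh library, and the lrNK values themselves ran over a wide range that rests on 8 to 153 counts. Mean levels were 488 ± 92.7 CPM in blood, 509 ± 90.1 CPM in liver CD8αhigh and 19.7 ± 13.9 CPM in lrNK cells (SD, n = 5 each). The log2 fold change of lrNK over cNK cells was -4.58 (SE 0.36, edgeR adjusted p = 1.34e-08), and ranked 123 from the lowest of 10939 genes tested.

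S1PR4, at chr2:75394737-75399914, fell as well, to a lesser extent. Its levels were 149, 146, 178, 66.9 and 139.5 CPM in cNK cells of pigs 1 to 5. They were 84.3, 91.0, 107, 91.9 and 79.5 CPM in liver CD8αhigh NK cells, and 16.2, 28.3, 23.4, 23.6 and 12.0 CPM in lrNK cells. The lrNK libraries lay below all others, while the CD8αhigh libraries of blood and liver overlapped through the low blood value of pig 4. Compared with cNK cells, S1PR4 in lrNK cells had a log2 fold change of -2.73 (SE 0.26, edgeR adjusted p = 1.54e-07). Compared with liver CD8αhigh NK cells it was -2.14 (adjusted p = 3.89e-06).

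S1PR1, at chr4:117064632-117069724, did not share this pattern. In cNK cells it stood at 326, 133, 106, 85.6 and 98.9 CPM in pigs 1 to 5. In liver CD8αhigh NK cells it stood at 139, 82.5, 67.5, 41.2 and 28.7 CPM, and in lrNK cells at 79.7, 141, 97.4, 78.9 and 61.1 CPM. All 3 populations overlapped, and pig 1 had the highest value of both CD8αhigh populations but not of lrNK cells. The log2 fold change of lrNK over cNK cells was -0.72 (SE 0.38, edgeR adjusted p = 0.227), with a 95% interval from -1.52 to 0.08, and the level was lower in 4 of 5 pigs. Without pig 1 the same value was -0.16 (adjusted p = 0.803), so its size rested largely on that animal. Against liver CD8αhigh NK cells the value was 0.36 (adjusted p = 0.645), with an interval from -0.45 to 1.16. The interval of lrNK over cNK cells for S1PR1 lay wholly above those of S1PR4 (-3.27 to -2.18) and S1PR5 (-5.34 to -3.82). B cells also transcribe S1PR1, and the B cell markers summed to 521, 787, 243, 792 and 301 CPM in lrNK cells of pigs 1 to 5. Their highest sums were in pigs 2 and 4, which held the highest and the second lowest S1PR1 level of lrNK cells. The part of B cell transcripts in the S1PR1 level was not tested.

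**Figure D2:**
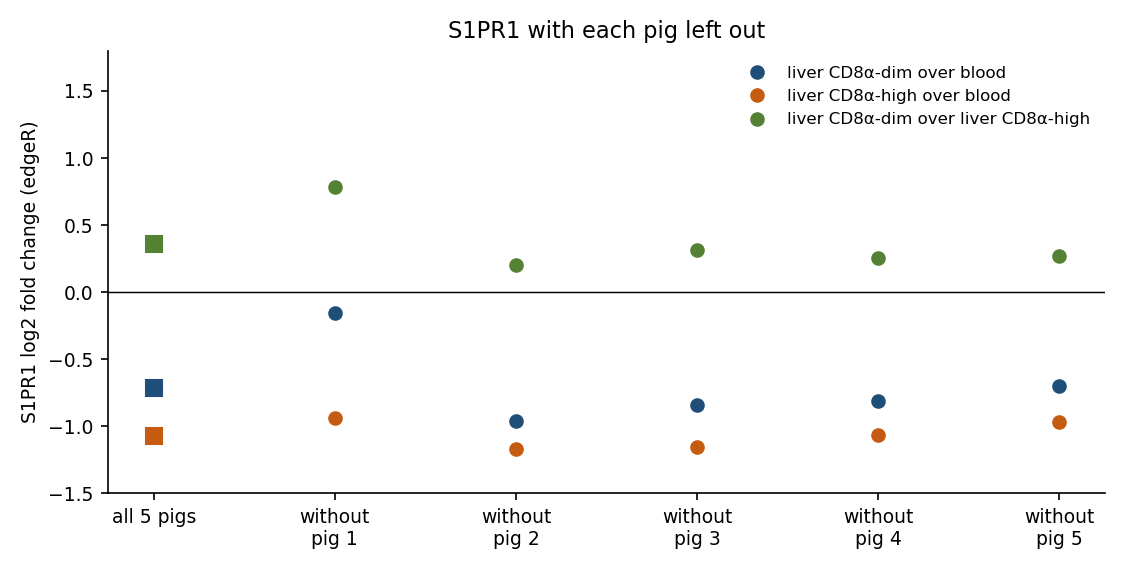
Log2 fold change of S1PR1 (edgeR) in the 3 comparisons with all 5 pigs (squares) and with the libraries of 1 pig left out in turn (circles). Leaving out pig 1 moved the difference between lrNK and cNK cells from -0.72 to -0.16, and each of the other pigs left it between -0.96 and -0.70.

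S1PR2 was near the limit of detection and S1PR3 had no count in any library. S1PR2 was read at 2.08, 8.16, 7.31, 3.09 and 8.62 CPM in lrNK cells and at 0, 0, 4.61, 0 and 1.71 CPM in cNK cells. Its log2 fold change was 2.16 (SE 1.17, edgeR adjusted p = 0.232), and although lrNK cells were higher in 5 of 5 pigs the 95% interval ran from -0.27 to 4.60. S1PR2 and S1PR5 lie 236 kb apart on chromosome 2. Of the 9 genes tested in that stretch, S1PR5 was lower in lrNK cells, KEAP1 next to it was higher (0.66, adjusted p = 0.0131) and the others were not called. The genes nearest to S1PR4 and KLF2 were lower in lrNK cells. They were NCLN (-1.33, edgeR adjusted p = 0.00119) and EPS15L1 (-1.75, adjusted p = 0.000407). The next nearest, GNA15 and AP1M1, were not called.

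The receptor total was lower in lrNK cells and its make-up differed. The summed level of S1PR1, S1PR4 and S1PR5 was 774 ± 99.4 CPM in cNK cells, 672 ± 62.0 CPM in liver CD8αhigh NK cells and 132 ± 23.9 CPM in lrNK cells (SD, n = 5 each). Of these receptor counts S1PR5 held 63.7% ± 12.5 in blood, 75.5% ± 7.67 in liver CD8αhigh and 16.4% ± 12.7 in lrNK cells. S1PR1 held 19.0% ± 11.5, 10.9% ± 6.79 and 68.1% ± 10.4 in the same order. The lowest share of S1PR1 in lrNK cells, 54.0%, was above the highest in blood, 39.3%, and the highest share of S1PR5 in lrNK cells, 35.3%, was below the lowest in blood, 42.8%. The share of S1PR4 was 17.2% ± 3.96, 13.6% ± 2.34 and 15.5% ± 3.48 and overlapped between populations. These shares do not depend on how libraries were scaled. They are shares of 3′ reads, which are not per length, and were compared only between populations.

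**Figure D3:**
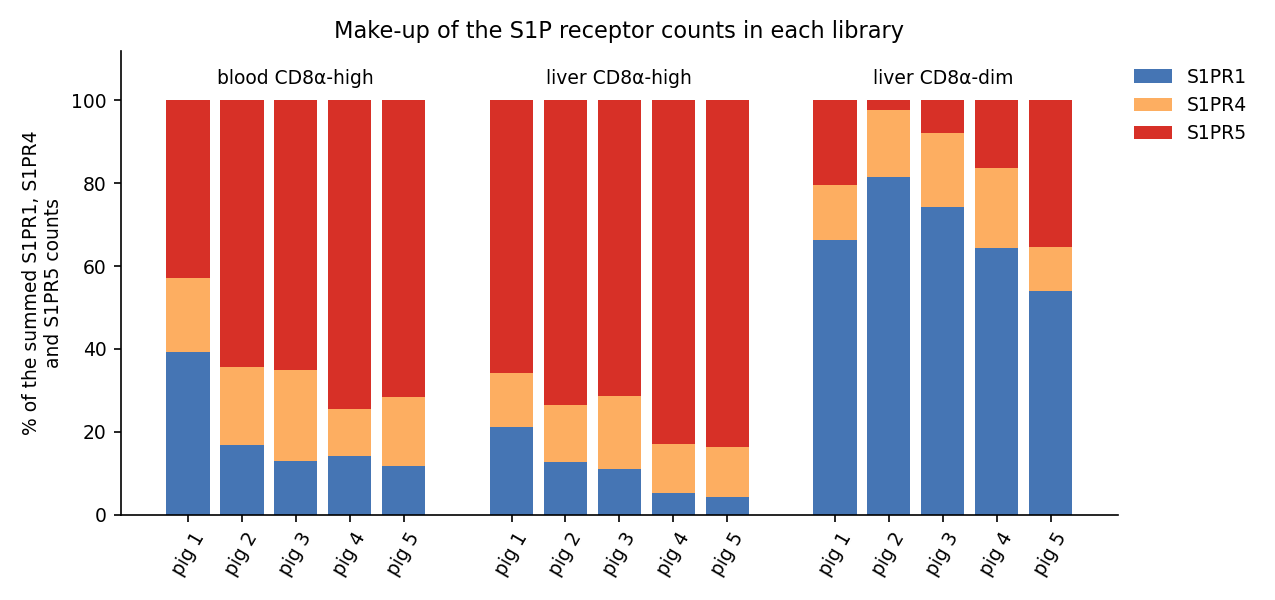
Share of S1PR1, S1PR4 and S1PR5 in their summed counts (stacked to 100%) in each library, by population and pig. S1PR5 took 42.8% or more in every CD8αhigh library of blood, and S1PR1 took 54.0% or more in every CD8αdim library.

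KLF2, at chr2:61270733-61273037, was lower in lrNK cells and varied widely between pigs. cNK cells of pigs 1 to 5 had 195, 887, 995, 996 and 609 CPM. Liver CD8αhigh NK cells had 346, 739, 678, 688 and 707 CPM, and lrNK cells had 52.3, 197, 2.92, 122 and 49.4 CPM. Pig 1 was lowest in both CD8αhigh populations, and its cNK value was just under the lrNK value of pig 2, so that the groups of cNK and lrNK cells overlapped in this pair of libraries. Within each pig lrNK cells were below cNK cells, with log2 ratios from -8.15 in pig 3 to -1.88 in pig 1. The fitted log2 fold change was -3.12 (SE 0.58, edgeR adjusted p = 0.000493) against cNK cells and -2.90 (adjusted p = 0.00107) against liver CD8αhigh NK cells. Pig 3 joined an lrNK library with 6 KLF2 counts to a cNK library at 995 CPM, and the value was -2.68 without all libraries of pig 3. With any 1 library left out the value against cNK cells lay between -3.67 and -2.80 (edgeR adjusted p at most 0.00256). With any 1 pig left out it lay between -3.60 and -2.68 (edgeR adjusted p at most 0.00723).

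KLF3, at chr8:30024978-30060981, fell by a similar amount with less spread. It was read at 87.8, 97.6, 151, 108 and 128 CPM in cNK cells. It was read at 73.9, 96.5, 138, 103 and 125 CPM in liver CD8αhigh NK cells, and at 5.81, 35.0, 12.2, 26.1 and 10.2 CPM in lrNK cells. No lrNK library reached the level of any other library, and the order of the pigs was the same in blood and liver CD8αhigh NK cells. The log2 fold change was -2.68 (SE 0.35, edgeR adjusted p = 8.17e-06) against cNK cells and -2.59 against liver CD8αhigh NK cells. A lncRNA that shares 452 bases with KLF3 had 20 counts over all libraries, and one that shares 676 bases with S1PR1 had none.

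CD69 was barely read, at chr5:62078134-62084961, in any of the sorted cells. Counts were 0, 6, 0, 6 and 0 in cNK cells of pigs 1 to 5. They were 7, 0, 4, 0 and 0 in liver CD8αhigh NK cells and 7, 13, 0, 5 and 22 in lrNK cells. lrNK cells thus held most of the counts, but pig 3 had none and pig 4 had about as many in blood. Summed over 5 pigs, CD69 came to 3.37 CPM in lrNK cells (exact 95% Poisson interval 2.48 to 4.49), 0.718 CPM in cNK cells (0.371 to 1.25) and 0.543 CPM in liver CD8αhigh NK cells (0.271 to 0.971), intervals that cover counting error only. CD69 did not pass the filter on low counts. In a fit with no filter the log2 fold change of lrNK over cNK cells was 2.05 (SE 1.57, edgeR adjusted p = 0.420), so no difference in CD69 was called. Several other genes were also at 0 in all libraries, NR4A1 and KLF9 among them, and whether the 3′ ends of such genes are annotated in a way that captures these reads was not tested.

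By the edgeR test, then, 0 of 5 genes tested were higher in lrNK than in cNK cells and 4 were lower, with a median log2 fold change of -2.73, against 8.62% of all 10939 genes called higher and 9.60% called lower and a median over all genes of 0.01. For S1PR4, S1PR5 and KLF3, every lrNK value was below every cNK value, which held for 7.33% of all genes. Against liver CD8αhigh NK cells 0 were higher and the same 4 were lower, with a median of -2.59, where 6.96% of all genes were called higher and 7.68% lower. All 4 were without overlap in that comparison, as were 6.67% of all genes. These comparisons share the lrNK libraries. The 5 genes and the gene lists below were chosen with earlier results of these data known. The shares over all genes are therefore a backdrop and no test of the choice. Between liver CD8αhigh NK cells and cNK cells none of the 5 was called, where 0.0457% of all genes were called higher and 0.0183% lower (7 genes in all, and 549 genes at an unadjusted p under 0.05).

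**Figure D4:**
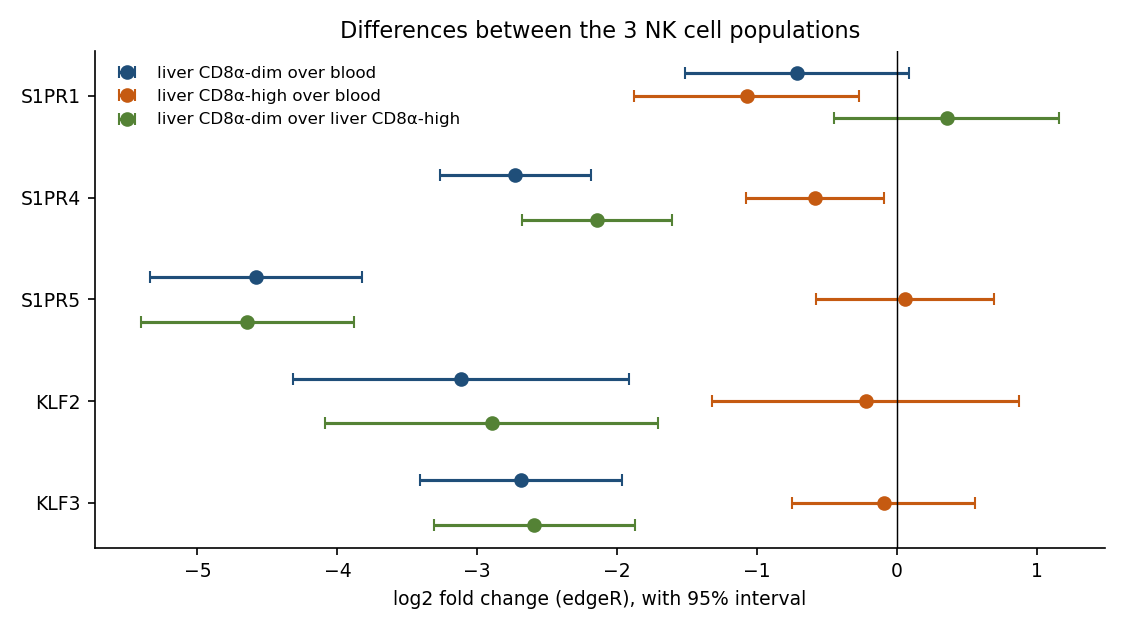
Log2 fold change (edgeR) with its 95% interval for the 5 genes tested, in the 3 comparisons, where values left of 0 are lower in the population named first. S1PR4, S1PR5, KLF2 and KLF3 lay near or below -2 in both comparisons of lrNK cells, and S1PR5, KLF2 and KLF3 lay near 0 between the CD8αhigh populations.

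Whether liver CD8αhigh NK cells were on the way to the lrNK pattern was the question behind their comparison with cNK cells. S1PR5 was at 0.06 on the log2 scale, with a 95% interval from -0.57 to 0.70 that leaves out a fall of the size seen in lrNK cells. KLF3 was at -0.09 (-0.75 to 0.56) and KLF2 at -0.22 (-1.32 to 0.87). KLF3 was lower in the liver in 5 of 5 pigs, by small log2 ratios within a pig from -0.25 to -0.02. S1PR1 was at -1.07 (SE 0.39, 95% interval -1.88 to -0.27), or -0.56 without the blood library of pig 1, and was lower in the liver in 5 of 5 pigs, with log2 ratios within a pig from -1.77 to -0.64. Its unadjusted edgeR p was 0.0114 and its adjusted p was 0.729 over all genes, so it was not called. S1PR4 was lower in 4 of 5 pigs, at -0.58, with an interval from -1.08 to -0.09 (edgeR unadjusted p = 0.0230, adjusted p = 0.839).

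Of the genes that make, carry and break down S1P, 17 were tested between lrNK and cNK cells. Of these 1 was higher and 3 were lower, beside 8.62% of all genes called higher and 9.60% called lower, and the median log2 fold change was 0.08. PLPP2, a lipid phosphate phosphatase of the cell surface, was higher in lrNK cells (2.80, SE 0.77, edgeR adjusted p = 0.0134), a call that was lost without pig 3 (2.00, adjusted p = 0.0888) and without pig 4 (2.53, adjusted p = 0.0731). Lower were ACER3, a ceramidase that frees sphingosine (-2.18), CERK, the ceramide kinase (-1.25), and CERS2, a ceramide synthase (-1.15). SPHK2, which makes S1P, was at -0.17, SGPL1, the lyase that destroys it, at 0.08, and SPNS2, which exports it, at 0.06, none of them called. SPHK1 was too low to be tested.

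Of 21 tested genes that act behind the receptors, 2 were higher and 6 were lower in lrNK than in cNK cells, with a median of -0.42, where 8.62% of all genes were called higher and 9.60% lower. With the pig as a block 8 were lower, and the added calls were RGS2, a regulator of G protein signals (-1.35, edgeR adjusted p = 0.00119, lower in 5 of 5 pigs), and RAC2, a GTPase of cell movement (-0.63, adjusted p = 0.0419). Without the block RGS2 was at -1.24 (edgeR adjusted p = 0.105) and RAC2 at -0.61 (adjusted p = 0.0817). The β-arrestins, which bind phosphorylated receptors and end their G protein signal, were both lower. ARRB1 was read at 9.50 to 30.4 CPM in cNK cells and at 0 to 1.44 CPM in lrNK cells (-4.90, SE 0.70, edgeR adjusted p = 3.16e-05). ARRB2 was read at 96.2 to 146 CPM and 13.3 to 31.9 CPM (-2.47, SE 0.22, adjusted p = 8.07e-08). Of the 4 receptor kinases tested, which prepare receptors for arrestin, GRK2 (0.02, edgeR adjusted p = 0.978) and GRK6 (-0.08, adjusted p = 0.739) were not called. GRK5 fell from 80.8 to 17.9 CPM on average (-2.17), and GRK3 rose from 8.07 to 85.4 CPM (3.37, adjusted p = 0.00173). RGS1, which shortens Gi signals and holds lymphocytes back from chemoattractants, was higher in lrNK cells, at 499 against 144 CPM (1.79, adjusted p = 0.00314). RGS1 was higher in 4 of 5 pigs, and the groups overlapped (211 to 925 CPM in lrNK and 54.7 to 226 CPM in cNK cells). TIAM1, an activator of Rac, was at 1.26 against 23.0 CPM (-4.09), and GNAI2, the Gi subunit through which S1PR1 signals, was at 361 against 622 CPM (-0.78).

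Of 8 other KLF genes tested, 4 were lower and 1 was higher in lrNK than in cNK cells, with a median log2 fold change of -0.61, beside 9.60% of all genes called lower and 8.62% called higher. The lower ones were KLF11 (-1.69), KLF8 (-1.52), KLF6 (-1.17) and KLF12 (-0.90), all with smaller differences than KLF2 and KLF3. KLF10, which TGF-β is known to induce, was higher at 25.0 against 6.03 CPM (2.06, edgeR adjusted p = 0.0259), but the call was lost under 9 alternative settings. With the pig as a block KLF10 was at 1.89 (edgeR adjusted p = 0.0547), and without pig 2 its adjusted p was 0.143. In the lrNK library of pig 3 KLF10 was at 1.46 CPM, against 25.3 to 34.6 CPM in the other lrNK libraries.

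Of 6 homing and adhesion genes tested, 3 were lower and 1 was higher in lrNK than in cNK cells, beside 9.60% and 8.62% of all genes. CX3CR1, the fractalkine receptor of patrolling cells, was at 3.05 CPM in lrNK cells and 645 CPM in cNK cells (-7.88, SE 0.51, edgeR adjusted p = 9.08e-10). ITGB7, an integrin chain of gut homing, was also lower (-2.25), as was ITGAL (-0.79), whose call was lost without pig 1 (-0.65, edgeR adjusted p = 0.0803) and without pig 2 (-0.67, adjusted p = 0.0579). CXCR3, a receptor for interferon-induced chemokines, was higher (2.23).

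Of 14 factors that act upstream of KLF2 or the S1P receptors, 5 were lower and 4 higher in lrNK than in cNK cells, beside 9.60% and 8.62% of all genes. With the pig as a block 6 were lower, the added one being MAP2K5, a kinase upstream of the MEF2 factors (-0.81, edgeR adjusted p = 0.0210, against 0.0533 without the block). T-bet, encoded by TBX21, drives S1PR5 in mouse NK cells together with ZEB2. TBX21 was at 80.9 to 246 CPM in lrNK and 1038 to 1269 CPM in cNK cells (-2.55, SE 0.22, edgeR adjusted p = 4.06e-08). ZEB2 was at 20.6 to 50.9 CPM against 394 to 610.3 CPM (-3.74). ZNF683, which encodes Hobit, a repressor of S1PR1 and KLF2 in mouse resident lymphocytes, was at 8.87 against 587 CPM (-6.16). EOMES was higher (4.09), and so was FOXO1, which switches on KLF2 in T cells (0.69, adjusted p = 0.0208, lost under 4 of the alternative settings). MEF2C, an activator of KLF2 in endothelium that B cells also express, was higher too (4.17). The B cell markers were also higher in lrNK cells, and their part in MEF2C was not tested.

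Among 12 genes that lymphocyte activation induces, 4 were higher and 2 lower in lrNK than in cNK cells, beside 8.62% and 9.60% of all genes. EGR3 (4.33), EGR1 (3.44) and NR4A2 (1.97) were among the higher ones, whereas NR4A3 (-5.27) and JUNB (-1.04) were lower. EGR3 and NR4A2 were the only genes of these lists called between liver CD8αhigh NK cells and cNK cells, at 3.54 and 2.13 (edgeR adjusted p = 0.0103 for both), and each was above the cNK values in all 5 pigs. In that comparison 0.0457% of all genes were called higher and 0.0183% lower. EGR3 lost its call there under 6 alternative settings and NR4A2 under 7.

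**Figure D5:**
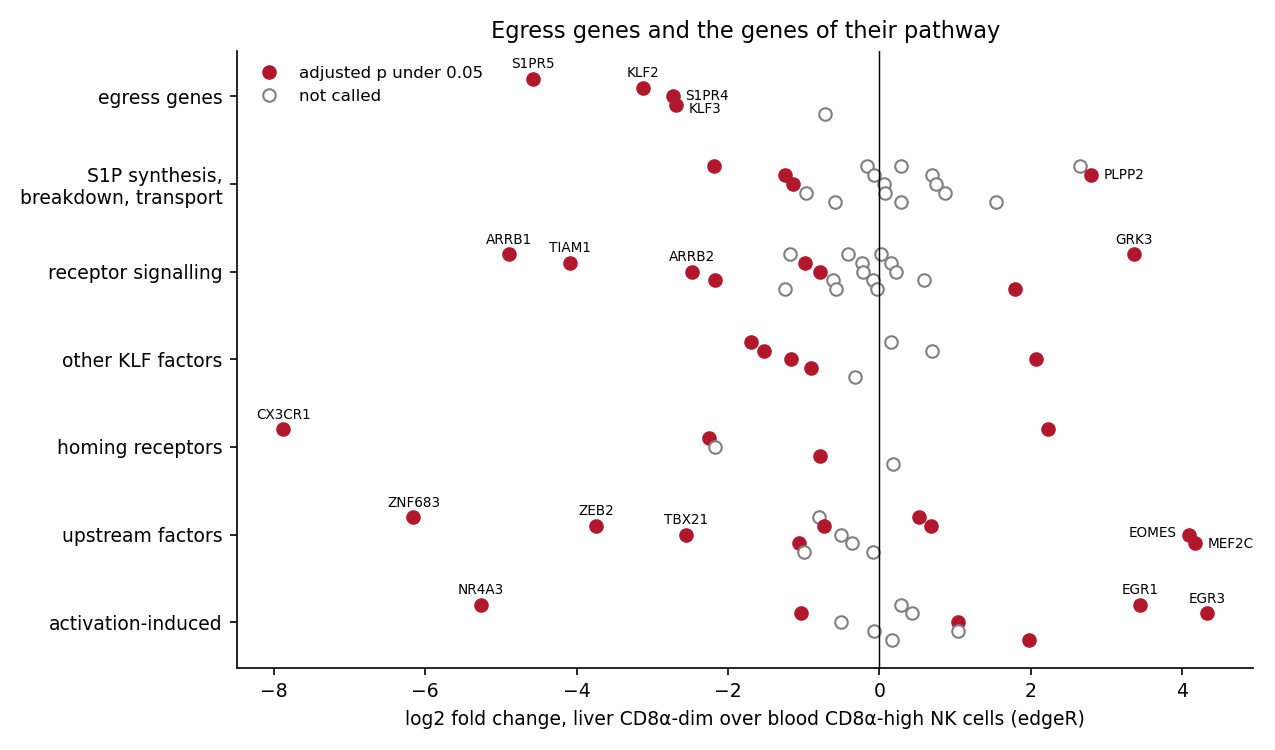
Log2 fold change (edgeR) of lrNK over cNK cells for each gene tested, by list, with genes at an adjusted p under 0.05 filled and the largest named. Genes of S1P synthesis, breakdown and transport lay on both sides of 0, while CX3CR1, ZNF683, NR4A3, ARRB1, S1PR5 and TIAM1 lay below -4 and EOMES, MEF2C and EGR3 above 4.

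Against liver CD8αhigh NK cells, the counts for lrNK cells over the lists were 2 higher and 3 lower of the S1P metabolism genes, 2 and 7 of the signalling genes, 1 and 3 of the other KLF genes, 1 and 3 of the homing genes, 3 and 5 of the upstream factors, and 0 and 3 of the activation-induced genes. These stand beside 6.96% of all genes called higher and 7.68% called lower. Some of these calls depended on the setting: CERS5 lost its call under 15 alternative settings, ITGAL under 12, KLF6 under 11, FOXO1 under 9, GRK3 under 5, IER2 and PLPP2 under 4 each, CERK, JUNB and KLF7 under 2 each and CXCR3 under 1. KLF8, not called here (-1.03, edgeR adjusted p = 0.0691), was lower in the blocked fit (-1.11, adjusted p = 0.0313). The signalling genes included GRK3 (2.37), RGS1 (1.68), ARRB1 (-4.45), TIAM1 (-3.31) and GRK5 (-2.29). Among the KLF genes, KLF7 was higher (1.27) and KLF11 lower (-1.37). NR4A3 (-5.83) and IER2 (-0.74), an early response gene, were lower.

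The genes whose log2 CPM followed each egress gene most closely over the 15 libraries differed from gene to gene. For S1PR5 these were SYTL2 (Pearson r 0.98), which encodes a protein of granule exocytosis, PTH1R (0.98) and PTAFR (0.98). For S1PR4 they were THRA (0.97), TMEM109 (0.96) and LOC110255870 (0.96). KLF2 was followed by RASGRP2 (0.98), a Rap activator of lymphocyte adhesion, HEXIM1 (0.97) and CYTH1 (0.97), and with the population means taken out the r of RASGRP2 was 0.94. KLF3 was followed by LRP12 (0.98), GPX1 (0.97) and AXIN2 (0.97). With those means taken out, r was 0.80 for SYTL2, 0.63 for THRA and 0.89 for LRP12. For S1PR1 the closest genes, among them ACTR1A (0.82) and LOC100624067 (0.75), had a lower r over the 15 libraries. With the population means taken out their r was 0.80 and 0.72, within the span of the values above. Of the 15 genes with the highest r, 3 for each egress gene, 3 were also among the top 3 of their gene by Spearman rank. The libraries share pigs and populations, and these correlations are descriptions. Among the egress genes themselves, S1PR4 and KLF3 had the highest r (0.93, and 0.52 with the population means taken out). S1PR1 had an r between -0.11 and 0.22 with the other 4 (-0.55 to 0.40 with the means taken out). With the means taken out S1PR5 and KLF3 went from 0.83 to -0.52, and S1PR4 and S1PR5 from 0.85 to -0.52.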

How the data were processed

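The authors deposited raw counts per gene for 15 libraries (QuantSeq 3′ mRNA FWD kit, NextSeq500). Per the study's methods, reads were trimmed with QuasR and aligned with Rhisat2, a wrapper of HISAT2, to Sscrofa11.1. How reads were counted, with or without strand, and what was done with multi-mapped reads is not given in the sources used here. Coordinates come from a RefSeq gene table of the same assembly, matched by symbol for 29862 of 29886 genes.

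Counts were tested with edgeR 4.0.16 (quasi-likelihood test, TMM scaling, default filter by population with a minimum count of 10, Benjamini-Hochberg adjustment over 10939 genes, threshold 0.05) in R 4.3.3, in 1 fit of all 15 libraries without a pig term. CPM used TMM library sizes, log2 CPM a prior count of 2, and 95% intervals the t quantiles of the fit. Receptor shares and correlations had no test. Exact two-sided permutation tests over 252 splits served as an alternative, whose smallest possible p is 0.00794.

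The 3 populations came from the same 5 pigs, so the donor numbers pair the libraries. Deviations from the population means correlated at 0.11 on average within a pig (15 pairs, from -0.02 to 0.19). Between pigs they correlated at -0.03 (60 pairs, from -0.20 to 0.18), a mean that the centring itself pulls below 0. With pig as a replicate block, 4 of the 5 egress genes tested were again lower in lrNK than in cNK cells. Replicates are separate animals.

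The members and gene lists were chosen with earlier results of these data known. Besides the 6 genes, S1PR2 and S1PR3, the text names up to 3 rises and 3 falls per list and comparison at an adjusted p under 0.05, and the 3 genes most alike to each member, of which 1 is not reported here. GNAI2, GRK2, GRK6, KLF12, MAP2K5, RAC2, RGS2, SPHK1, SPHK2, SGPL1, SPNS2, KEAP1, NCLN, EPS15L1, GNA15 and AP1M1 were named in addition after their values were seen. In counts simulated for lrNK against cNK cells (10678 genes), the test recovered 98 of 99 genes changed 4-fold and 60 of 101 changed 2-fold, with 6 false calls of 164. The simulation gave every gene the same dispersion, had no pig effect and changed only genes that were not low in counts. Recovery of changed genes with a wider spread or fewer counts was not simulated. Alternatives were DESeq2 1.42.0, its size factors, other filters, robust dispersion, only the populations compared, and leaving out pigs or libraries. Figures were drawn with matplotlib 3.10.9.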

Additional observations from a re-analysis of the deposited data

Results flagged for a closer look

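In 18 sets of 5 libraries (6 genes in 3 populations), 2 held a library that stood apart by Dixon's ratio of the gap to the range, where chance gives about 1 in 20. S1PR1 in cNK cells of pig 1 was at 326 CPM, and the other pigs lay between 85.6 and 133 CPM (ratio 0.805). KLF2 in liver CD8αhigh NK cells of pig 1 was at 346 CPM, and the others between 678 and 739 CPM (ratio 0.846). That library also had the highest EOMES (218 CPM, next 62.5 CPM) and GRK3 (45.2 CPM, next 25.9 CPM) of its population. Its CX3CR1 was the lowest (559 CPM, next 774 CPM). Each of these leaned toward the lrNK level, but RGS1 was not highest there and ARRB1, GRK5 and NR4A3 were not lowest. Among blood libraries, EOMES (74.0 CPM) and GRK3 (21.7 CPM) also peaked in pig 1, but CX3CR1 was not lowest. The part of lrNK cells in these libraries was not tested.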

How the results depend on the processing

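S1PR4, S1PR5, KLF2 and KLF3 stayed lower in lrNK cells, and S1PR1 stayed uncalled, under every one of the 28 alternatives run for each against cNK cells and against liver CD8αhigh NK cells. The log2 fold changes against cNK cells ranged from -5.02 to -4.33 for S1PR5, from -2.96 to -2.55 for S1PR4, from -3.77 to -2.68 for KLF2, from -3.10 to -2.45 for KLF3 and from -0.96 to -0.16 for S1PR1. Between liver CD8αhigh and cNK cells no egress gene was called under any of them. S1PR1 had a paired value of -1.09 there (edgeR adjusted p = 0.256 with pig as a replicate block), and -1.03 (adjusted p = 0.213) with the block and without pig 1, an alternative added after the data were seen. Without the blood library of pig 1 it was -0.56. The block changed no call of the egress genes. All genes called between liver CD8αhigh and cNK cells numbered 7, and were 25 with DESeq2, 18 with no filter on low counts, 4 with robust dispersion, 16 with only these populations and 0 to 12 with a pig or library left out. Between lrNK and liver CD8αhigh NK cells 1601 genes were called, and 1051 to 1764 with a pig or library left out, the lowest without pig 5. Of the 15 genes most alike to the egress genes, 3 were shared with the Spearman ranking. The cause of these shifts was not tested. S1PR2 and the genes named by the rule on rises and falls make 34 other genes, for which no called difference changed direction. Over all settings 17 calls were lost between lrNK and cNK cells and 13 between liver CD8αhigh and cNK cells. Between lrNK and liver CD8αhigh NK cells 67 were lost. Those that lost a call under at least 1 setting were KLF10, FOXO1, ITGAL and PLPP2 against cNK cells, EGR3 and NR4A2 between liver CD8αhigh and cNK cells, and GRK3, KLF6, KLF7, IER2, CXCR3, JUNB, CERK, CERS5, FOXO1, ITGAL and PLPP2 against liver CD8αhigh NK cells. Of the 34, calls were gained by CERS5 against cNK cells, IER2 between liver CD8αhigh and cNK cells, and KLF8 against liver CD8αhigh NK cells, the last with the replicate block, DESeq2, no filter and 1 library left out. Most genes named after their values were seen are not among the 34. Of those, GRK2, SGPL1 and SPNS2, near 0 and not called, changed sign against cNK cells with the replicate block. Few counts lie behind S1PR2, CD69 and the lrNK levels of S1PR5 and KLF2, as few as 8 and 6 for the last 2 genes, which limits their precision.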
